A study of Mus musculus with 82 samples.

Results

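The antioxidant and glutathione genes described here are Hmox1, Nqo1, Gclm, Txnrd1, Srxn1, Gstm1, Gstm2, Gpx3, Sod2 and Sod3 in primary murine aortic vascular smooth muscle cells (aVSMC). They are the rows with these gene names, 10 of the 55401 genes in the deposited count tables. Of these 10, 9 had counts and were tested at both time points, and Nqo1 is listed at 0 in every library. The aVSMC were isolated from C57BL/6 mice without a genetic modification named in the labels, were grown with serum, EGF, insulin, transferrin, hydrocortisone and selenite, and were then kept in unsupplemented medium for 24 h. The age of the mice is not given in the sources used here. After this starvation, which all groups share, the cells received fresh unsupplemented medium alone (Control) or with EGF (10 µg/L), which activates the EGF receptor, with AngII (10 nM), which activates the angiotensin receptor AT1R, or with U46619 (1 µM), a stable thromboxane analog that activates the thromboxane receptor TP. The 24 h experiment had 7 groups of 6 cultures, with every mouse of 6 giving 1 culture to each group: Control, the agents EGF, AngII and U46619 alone, EGF+U46619, EGF+AngII, and all 3 agents together (EGF+AngII+U46619). The 48 h experiment was run as an EGF/U46619 batch and an EGF/AngII batch, in which the agents of the name were given singly and combined beside a Control of the batch, with n = 5 cultures per group and batch. Equal replicate numbers within a batch mark a culture set, named B1-1 to B1-5 for EGF/U46619 and B2-1, B2-2, B2-4, B2-5 and B2-6 for EGF/AngII. By the labels these 10 sets came from 5 mice, whereas by the study's methods no mouse was used for more than 1 replicate.

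These genes belong to the defence of a cell against oxidants. The transcription factor NRF2 is held at a low level by KEAP1 until oxidants or electrophiles release it, and then binds with small MAF proteins to antioxidant response elements of genes that make and reduce glutathione and thioredoxin. Hmox1 encodes heme oxygenase-1, which degrades heme, and Nqo1 encodes a quinone reductase. Gclm encodes the modifier subunit of glutamate-cysteine ligase, the first enzyme of glutathione synthesis, Txnrd1 encodes the cytosolic thioredoxin reductase, and Srxn1 encodes sulfiredoxin, which repairs overoxidized peroxiredoxins. Gstm1 and Gstm2 encode mu-class glutathione transferases, Gpx3 the secreted glutathione peroxidase, Sod2 the mitochondrial superoxide dismutase and Sod3 the extracellular superoxide dismutase, which is abundant in the vessel wall.

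Sequences are shown first for the pair whose reads could be confused. Gstm1 (chr3:108012255-108017973, minus strand) and Gstm2 (chr3:107981702-107986453, minus strand) are neighbours on GRCm38. Their coding sequences have 654 bases each, of which 562 are identical (85.9%), and the longest identical stretch has 60 bases. The first 90 coding bases are printed in lower case from the reference transcripts, and capitals mark the 15 bases that differ between the genes.
Gstm1: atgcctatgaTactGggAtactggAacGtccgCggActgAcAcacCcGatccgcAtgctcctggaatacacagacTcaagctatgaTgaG
Gstm2: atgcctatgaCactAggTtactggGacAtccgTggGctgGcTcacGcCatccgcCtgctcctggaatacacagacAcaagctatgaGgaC
The authors counted reads that align to several places, and the read length was 150 bases. None of the 150-base windows of the Gstm1 or Gstm2 transcripts (0 windows) was identical to a window of another gene's transcript. Of the other members, 2.31% of the windows of Gclm were shared with Gm10123, Gm17494, Gm6061 or Ppia, and 7.9% of those of Sod2 with AC166110.4 or Rps6ka2. Exons of other genes covered 4.71% of the exon bases of Gclm, by Gm17494 on the opposite strand and Gm6061 on the same strand, and none of those of the other members.

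Promoters are shown for 3 members that rose together with U46619, because they hold the letters TGACNNNGC, the core of the antioxidant response element. Both strands of each promoter (250 bases before to 50 after the start, from RefSeq on GRCm38.p6) were searched. The letters overlap the AP-1 motif TGACTCA where the variable bases allow it, and AP-1 was not searched. For Gclm (chr3:122245407-122245556) and for 1 of 3 Txnrd1 promoters (chr10:82859056-82859205) the 150 bases before the start are printed, and for Srxn1 (chr2:152105542-152105570) the match with 10 bases on each side, all on the plus strand of the gene. Capitals mark the match, which reads in the opposite direction in all 3.
Gclm: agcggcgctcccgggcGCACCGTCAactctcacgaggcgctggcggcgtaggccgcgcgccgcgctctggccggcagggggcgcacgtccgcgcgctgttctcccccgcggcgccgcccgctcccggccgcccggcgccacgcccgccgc
Txnrd1: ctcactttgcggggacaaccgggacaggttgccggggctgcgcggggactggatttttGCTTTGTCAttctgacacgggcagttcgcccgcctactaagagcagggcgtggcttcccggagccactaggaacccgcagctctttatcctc
Srxn1: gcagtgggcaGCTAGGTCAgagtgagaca
The match began at -134 in Gclm and at -92 in Txnrd1, counted from the start site, and at 29 bases into the transcribed part in Srxn1. The promoters of Gstm1, Gstm2, Gpx3, Sod2 and Nqo1 and the other two of Txnrd1 held no match in this window, and Hmox1 and Sod3 had no entry in the table used. Of 32851 promoters of the same length, 12.4% held a match, so a match alone does not set these genes apart.

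Library totals were 16483529 to 20818809 counts after 24 h and 19936925 to 33916114 after 48 h. Levels are given as FPM, the fragment count of a gene scaled to a common normalized library total with edgeR. All genes of chromosomes 9, X, Y and MT are listed at 0 in the deposited counts. So are Nqo1 and its neighbours Nfat5, Nob1 and Wwp2 on chromosome 8 in 82 of 82 libraries. Nothing is therefore read from the 0 of Nqo1 or of any other gene listed at 0 in every library. In 1 of 82 libraries, Control of set B2-4 after 48 h, the profile over all tested genes was closer to another set (mean r = 0.776 with set B2-2) than to its own (mean r = -0.293). The 48 h calls against Control are given with and without it. Of 8 smooth muscle markers, Acta2 had a median of 2718 FPM over all libraries and Myh11 one of 29.8 FPM, while Tagln and Cnn1 are listed at 0 throughout. Endothelial markers summed to between 9.86 and 2425 FPM in the Control libraries after 24 h.

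In Control cultures after 24 h the members spanned a wide range of levels. Per kilobase of exon, Gstm1 was highest with a median of 285.6 FPM per kb (103.7 to 383.0, n = 6), followed by Gstm2 with 174.9 (108.8 to 239.8) and Hmox1 with 137.5 (69.7 to 210.7). The ranges of these neighbours overlapped, so their order was not distinct beyond the spread. Sod3 (64.3, range 42.1 to 218.5) and Gpx3 (39.8, range 1.88 to 94.0) varied most between mice. Srxn1 (26.9) and Txnrd1 (25.7) lay close together, and Sod2 (7.90, range 7.52 to 9.31) and Gclm (6.86, range 4.26 to 11.9) were lowest. After 48 h the order of medians was the same except that Gpx3 (125.7 FPM per kb, n = 10) stood above Sod3 (74.3) and Gclm (10.4) above Sod2 (8.14).

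TP activation was compared with Control to see which members it moved in aVSMC. With U46619 alone for 24 h, Hmox1, Gclm, Txnrd1 and Srxn1 rose, Gstm1, Gstm2, Gpx3 and Sod3 fell, and Sod2 was not called. A gene was called when the FDR (Benjamini-Hochberg adjusted p over all genes tested) was under 0.05 in both edgeR and DESeq2 and the mean reached 5 FPM in 1 of the groups compared. By this rule 8 of 9 tested members were called, where 26.8% of all 14528 tested genes were. The 4 called higher stand beside 12.9% of all genes, and the 4 called lower beside 13.9%. The median log2-fold change of the 9 members was 0.13, that of all genes was -0.06, and the median size of change of the members was 1.06.

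Txnrd1 was the member whose level separated the groups. Its Control cultures had 107.4 to 236.1 FPM (median 182.4), and its U46619 cultures 266.0 to 494.0 FPM (median 364.5), so the groups did not overlap. The log2-fold change was 1.06 ± 0.17 (SE, n = 6 per group, edgeR adjusted p = 4.6e-05), and the level was higher in 6 of 6 mice, by 1.38 to 3.26 times. Mouse 2 moved most, from 151.7 to 494.0 FPM. How many of all tested genes had groups without overlap was not counted. A lack of overlap, here and below, therefore only describes the levels of a member.

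Srxn1 had 55.7 to 123.1 FPM in Control (median 75.9) and 80.3 to 210.0 FPM with U46619 (median 136.6). Within a mouse it was 1.44 to 2.18 times higher in all 6, the narrowest range of the raised members, although the groups overlapped (log2-fold change 0.79 ± 0.14, SE, edgeR adjusted p = 9.9e-05). Gclm had 26.8 to 74.8 FPM in Control (median 43.2) and 55.8 to 108.4 FPM with U46619 (median 68.3). It was higher in 6 of 6 mice, by 1.27 to 2.39 times (log2-fold change 0.71 ± 0.12, SE, edgeR adjusted p = 5.5e-05).

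Hmox1 rose on average but mice differed widely. Control cultures had 122.1 to 369.0 FPM (median 240.8) and U46619 cultures 228.7 to 1431 FPM (median 345.8). Mouse 4 went from 369.0 to 1431 FPM, mouse 5 from 224.1 to 1112 FPM and mouse 6 from 122.1 to 335.3 FPM, whereas mice 1, 2 and 3 were 1.06 to 1.185 times their Control. The fitted log2-fold change was 1.01 ± 0.28 (SE, edgeR adjusted p = 0.00637), and the high level of mice 4 and 5 was also seen with EGF+U46619 (1478 and 1163 FPM) and EGF+AngII+U46619 (1555 and 1104 FPM). Without mouse 4 or without mouse 5, Hmox1 was no longer called with EGF+U46619 (log2-fold change 0.71 and 0.66) or with EGF+AngII+U46619 (0.60 and 0.61), while with U46619 alone it was still called, with changes of 0.79 to 1.22 over the 6 left-out mice.

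Among the lowered members, Gstm1 showed the largest decrease. Its Control cultures had 152.8 to 564.1 FPM (median 420.7) and its U46619 cultures 29.6 to 188.4 FPM (median 90.3). It was lower in 6 of 6 mice, at 0.073 to 0.507 of the Control level, and the groups overlapped only through the low Control culture of mouse 6 (log2-fold change -2.16 ± 0.37, SE, edgeR adjusted p = 8.0e-05). Gstm2 went from 182.7 to 402.6 FPM in Control (median 293.7) to 87.1 to 189.9 FPM with U46619 (median 129.0), and was lower in 6 of 6 mice (log2-fold change -1.12 ± 0.19, SE, edgeR adjusted p = 6.1e-05).

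Gpx3 and Sod3, which encode a secreted and an extracellular enzyme, also fell. Gpx3 had 3.41 to 170.4 FPM in Control (median 72.2) and 0.232 to 104.0 FPM with U46619 (median 26.5), with mouse 1 lowest and mouse 6 highest in both groups. It was lower in 6 of 6 mice (log2-fold change -1.47 ± 0.36, SE, edgeR adjusted p = 0.00196). Sod3 had 157.3 to 816.9 FPM in Control (median 240.3) and 59.45 to 340.6 FPM with U46619 (median 97.8), and was lower in mice 1 to 5 but higher in mouse 6, from 200.4 to 340.6 FPM. Its log2-fold change was -1.22 ± 0.38 (SE, edgeR adjusted p = 0.0135), and without mouse 2, 4 or 5 it was not called (-1.04, -1.18 and -1.16).

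Sod2 stayed within a narrow band, with 75.2 to 93.2 FPM in Control (median 79.0) and 75.1 to 98.5 FPM with U46619 (median 90.4). The difference of 0.13 ± 0.10 (log2, SE, edgeR adjusted p = 0.369) did not pass the threshold.

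Markers of other cell types moved with the lowered members. Of 8 adventitial fibroblast markers, 7 were lower with U46619 after 24 h, where 13.9% of all genes were called lower and 12.9% higher. The summed level of the 8 was 470.1 to 3204 FPM in Control (median 803.4) and 161.2 to 1920 FPM with U46619 (median 381.2). Of 4 tested leukocyte markers 2 were lower (summed level 20.9 to 115.8 FPM in Control and 13.3 to 57.05 FPM with U46619), with Ptprc at 0 in 55 of 82 libraries and Adgre1 in 56. Of 5 tested adipocyte markers 2 were lower, with summed medians of 4.43 and 1.75 FPM but up to 1254 FPM in 1 Control culture. Of 7 tested endothelial markers 0 were called (0 lower, 0 higher), with summed medians of 277.7 FPM in Control and 214.8 FPM with U46619. Of 6 tested smooth muscle markers 2, Acta2 and Lmod1, were higher, and their summed median was 2628 FPM in Control and 11980 FPM with U46619. In these bulk samples fewer cells of a type and less RNA per cell cannot be told apart, and the part of other cells in the lower Gstm1, Gstm2, Gpx3 and Sod3 was not tested.

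**Figure D1:**
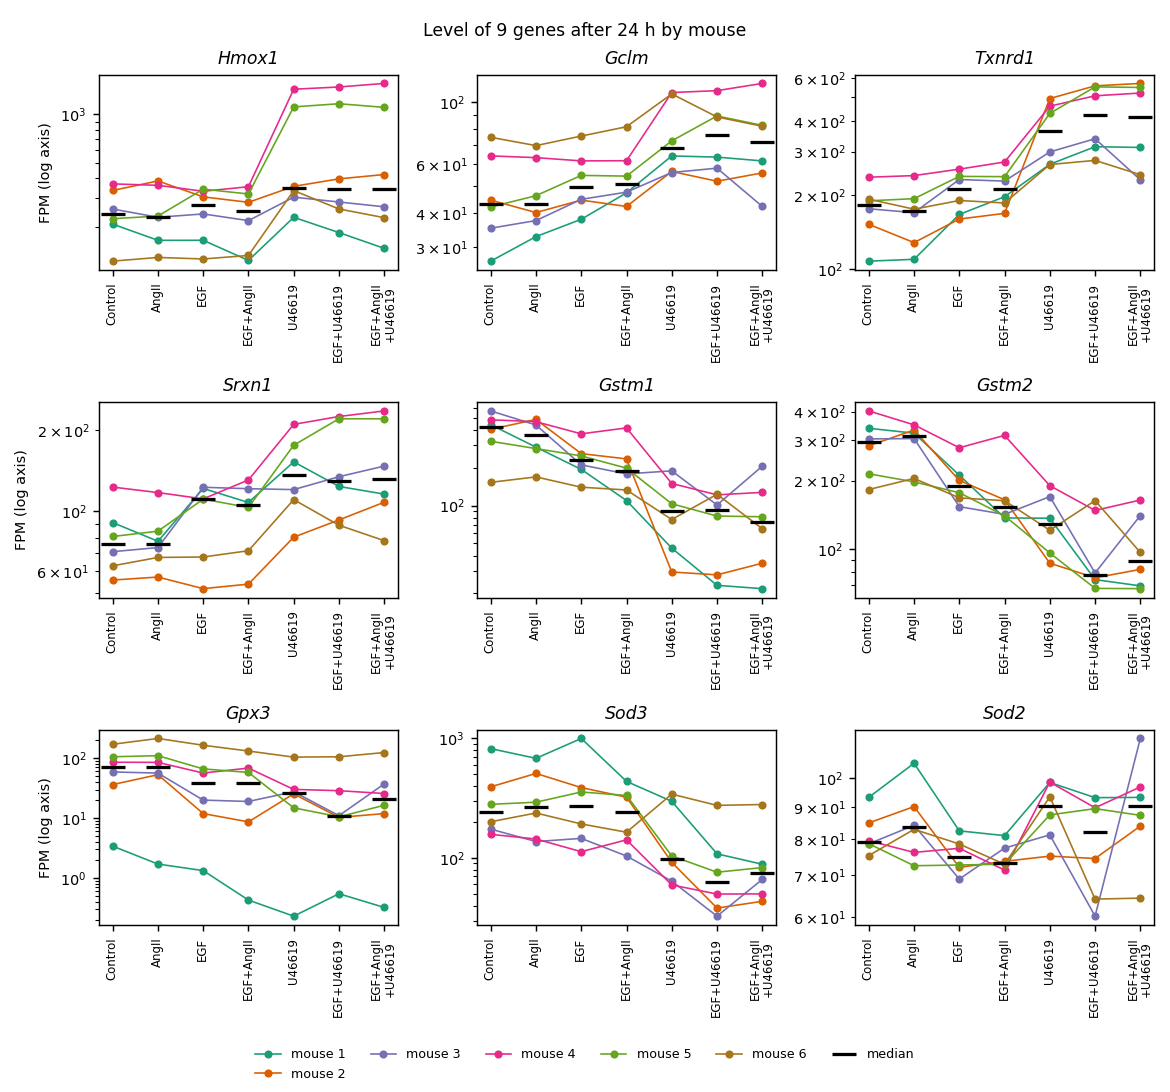
Level of the 9 detected members after 24 h, 1 panel per gene, with FPM on a log axis against the incubation. Points of 1 colour joined by a line are the cultures of 1 of 6 mice and black bars are group medians: Txnrd1 with U46619 (266.0 to 494.0 FPM) lies above all Control cultures (107.4 to 236.1 FPM), Hmox1 of mice 4 and 5 stands apart at 1431 and 1112 FPM with U46619, and Sod3 of mouse 6 runs against the other mice.

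EGF and AngII were compared with Control to see whether these agents moved the same genes. With EGF alone for 24 h, 0 of 9 members were called by edgeR or by DESeq2, where 0.0275% of all genes were called by both, and 3 had an unadjusted edgeR p under 0.05. These were Gstm1 (log2-fold change -0.74 ± 0.36, SE), Gstm2 (-0.52 ± 0.19) and Gpx3 (-0.95 ± 0.35), each lower than Control in 6 of 6 mice, with edgeR adjusted p of 0.269, 0.142 and 0.151. Hmox1 (-0.06 ± 0.28) and Sod3 (0.00 ± 0.37) had fitted changes close to 0. How many of all genes were called with EGF depended on the processing. The main fit called 4 of 14528, edgeR's likelihood ratio test with DESeq2 243, DESeq2 alone 270, and a fit with no mouse term 0. With 1 mouse left out, it was 338 of 14330 without mouse 6, 16 without mouse 4, and 0 or 1 otherwise. The paper reports many more genes regulated by EGF at this time point than the main fit called. With AngII alone, 0 of 9 were called by either tool (0% of all genes), none had an unadjusted edgeR p under 0.05 (0 members), and the median size of change was 0.026 on the log2 scale. The paper reports that AT1R was barely detectable at the RNA level in these cells. It also reports that AngII alone raised neither EGFR nor ERK phosphorylation.

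With EGF+AngII, 1 of 9 members was called, where 3.13% of all genes were. This was Gstm2, with 137.3 to 314.8 FPM (median 152.8) against 182.7 to 402.6 FPM in Control. It was lower in 6 of 6 mice (log2-fold change -0.73 ± 0.19, SE, edgeR adjusted p = 0.0408). The call was lost without mouse 1, 2, 3 or 5, with changes between -0.60 and -0.73. The call held without mouse 4 or 6. Gpx3 (-1.17 ± 0.35, edgeR adjusted p = 0.0523, DESeq2 adjusted p = 0.0142) and Gstm1 (-0.98 ± 0.36, edgeR adjusted p = 0.0934) did not pass the threshold in both tools. Set directly against EGF, EGF+AngII called 0 of 9 members by either tool (0% of all genes, 0 members at an unadjusted edgeR p under 0.05). The differences ran from -0.35 to 0.08 on the log2 scale, and intervals of 2 SE around them from -1.10 to 0.47.

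When EGF was added to U46619, the members that U46619 moved kept their direction. With EGF+U46619 for 24 h 8 of 9 members were called, 4 higher and 4 lower, where 32.1% of all genes were called, and with EGF+AngII+U46619 again 8 of 9, where 33.4% were. These 8 were Hmox1, Gclm, Txnrd1, Srxn1, Gstm1, Gstm2, Gpx3 and Sod3 each time. These comparisons share their Control cultures. Txnrd1 had 276.5 to 556.4 FPM with EGF+U46619 (median 422.8), above every Control culture, and 230.4 to 569.2 FPM with EGF+AngII+U46619 (median 416.1), which touched the Control range. The log2-fold changes were 1.25 ± 0.17 and 1.17 ± 0.17 (SE, edgeR adjusted p = 2.4e-06 and 4.3e-06).

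Gstm2 had 67.6 to 163.4 FPM with EGF+U46619 (median 77.0) and 67.4 to 164.4 FPM with EGF+AngII+U46619 (median 89.4), both below the lowest Control culture (182.7 FPM). Gstm1 had 23.2 to 122.8 FPM with EGF+U46619 (median 91.7), below its lowest Control of 152.8 FPM. The log2-fold changes of Gstm1 were -2.39 ± 0.38 and -2.37 ± 0.38, and those of Gstm2 -1.52 ± 0.19 and -1.51 ± 0.19. Gpx3 (-2.04 ± 0.37 and -1.56 ± 0.36) and Sod3 (-1.89 ± 0.39 and -1.70 ± 0.39) were also called, while Sod3 of mouse 6 again stood above its Control (274.4 and 279.1 against 200.4 FPM). Gclm (0.71 ± 0.12 and 0.63 ± 0.12) and Srxn1 (0.82 ± 0.14 and 0.86 ± 0.14) were higher by similar amounts as with U46619 alone. Markers of other cell types also moved here, though not all the same ones. With EGF+U46619 7 of 8 adventitial fibroblast markers were lower, with a summed median of 327.0 FPM, and 3 of 5 adipocyte markers. Lum was called lower here but not with U46619 alone, and Cd34 the reverse. Of 6 tested smooth muscle markers 1, Acta2, was higher.

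The direct comparisons asked whether EGF or AngII added to the response. EGF+U46619 against U46619 called 0 of 9 members by either tool, with 1 at an unadjusted edgeR p under 0.05, Gstm2 (-0.40 ± 0.19, p = 0.0407, edgeR adjusted p = 1.0). Shares of all genes are by the calling rule with both tools and the FPM minimum, here 0%, while DESeq2 alone had 3 genes of 14528. The differences ran from -0.67 for Sod3 to 0.20 for Txnrd1, and intervals of 2 SE spanned -1.42 to 0.54. EGF+AngII+U46619 against EGF+U46619 called 0 of 9 by either tool (0% of all genes, 0 members at an unadjusted edgeR p under 0.05), with differences of -0.08 to 0.48. The departure of EGF+U46619 from the sum of the separate effects was also not called for any member (0 of 9 by either tool, 0 at an unadjusted edgeR p under 0.05), and 0% of all genes were by the calling rule, with 2 by DESeq2 alone. It ran from -0.67 to 0.52 with intervals of 2 SE from -1.73 to 1.53. The paper, by contrast, lists Gstm2 among genes lowered more strongly by both agents together than by either alone. Its selection used pairwise comparisons of FPM and asked for a difference at either time point. Those comparisons differ from the fits used here and were not repeated.

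Against EGF rather than Control, U46619 called 7 of 9 members, where 11.1% of all genes were called, and EGF+U46619 8 of 9, where 12.9% were. EGF+AngII+U46619 against EGF+AngII called 7 of 9, where 19.9% were. Gpx3 was the member that dropped out, with -0.52 ± 0.35 (edgeR adjusted p = 0.360) for U46619 against EGF and -0.38 ± 0.35 (edgeR adjusted p = 0.451) for EGF+AngII+U46619 against EGF+AngII. Hmox1 (1.07 ± 0.28), Txnrd1 (0.81 ± 0.17), Gstm1 (-1.42 ± 0.37) and Sod3 (-1.22 ± 0.38) were called for U46619 against EGF.

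**Figure D2:**
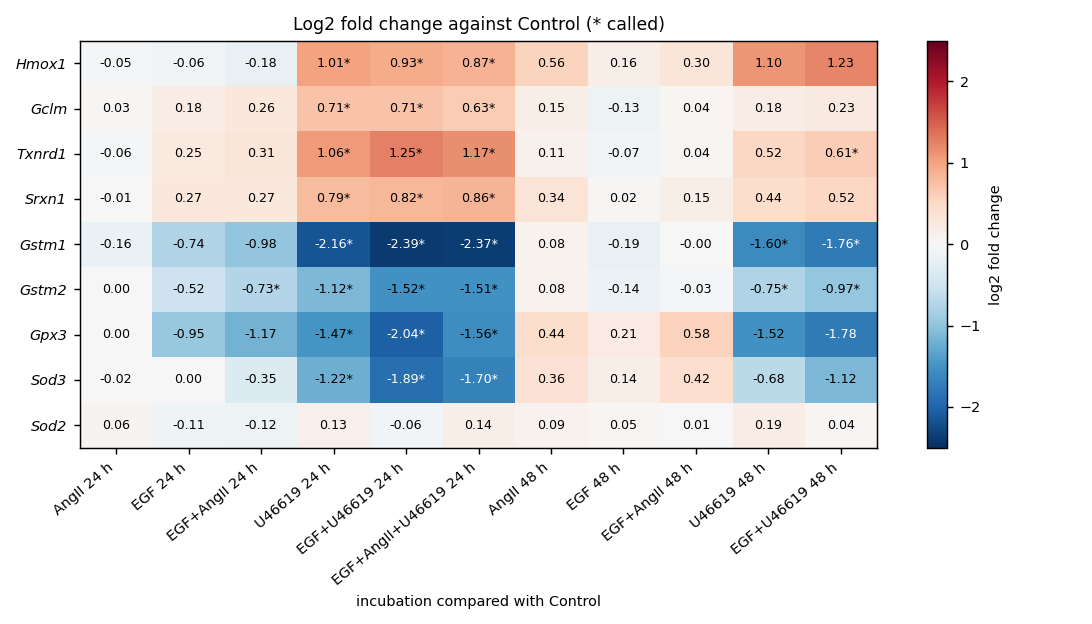
Log2-fold change against Control for the 9 detected members (rows) in each incubation after 24 h and 48 h (columns), from the fits with the mouse as a term. The colour scale is in log2 units and an asterisk marks a call: the 3 incubations with U46619 after 24 h carry 8 asterisks each, from -2.39 for Gstm1 to 1.25 for Txnrd1, and the Sod2 row stays within -0.12 and 0.19.

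After 48 h the U46619 cultures of the EGF/U46619 batch showed the same members high and low. With the mouse number of the labels as a term and all 40 libraries, U46619 called 2 of 9 members, Gstm1 and Gstm2, where 4.03% of all genes were called, and EGF+U46619 called 3 of 9, these and Txnrd1, where 6.85% were. This fit has no batch or culture set term, so cultures were not paired within a set. Its Control cultures (n = 10) come from both batches, those with U46619 (n = 5) from the EGF/U46619 batch only. Within the EGF/U46619 batch alone, with the culture set as the term, 8 of 9 members were called in both, 4 higher and 4 lower, where 21.9% and 26.6% of 14179 tested genes were called. With the culture set as the term over both batches it was 7 and 8 of 9, where 10.6% and 14.9% were. By the labels, sets B1-1 and B1-4 of this batch share mouse 7, so its 5 sets came from 4 mice and are not all independent. Without the Control library of set B2-4 the counts with the mouse term were 2 and 5, where 551 and 922 of 14524 tested genes were called. The 2 members added with EGF+U46619 were Gpx3 (-1.93 ± 0.51, SE, edgeR adjusted p = 0.0181) and Sod3 (-1.23 ± 0.35, edgeR adjusted p = 0.0256). The log2-fold changes of Gstm1 were then -1.70 ± 0.32 and -1.85 ± 0.32, those of Gstm2 -0.79 ± 0.15 and -1.005 ± 0.15, and those of Hmox1 1.02 ± 0.43 and 1.15 ± 0.43, for U46619 and EGF+U46619. Txnrd1 then had 0.52 ± 0.17 and 0.61 ± 0.17, Srxn1 0.38 ± 0.29 and 0.45 ± 0.29, and Gclm 0.22 ± 0.25 and 0.26 ± 0.25. Of the 8 adventitial fibroblast markers, Pi16 and Scara5 were lower with EGF+U46619 after 48 h, and the summed median of the list was 918.6 FPM in Control (n = 10), 342.0 FPM with U46619 and 396.4 FPM with EGF+U46619. The part of these cells in the lower members was not tested.

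Gstm1 after 48 h had 227.3, 309.0, 487.4, 352.2 and 455.2 FPM in the Control cultures of sets B1-1 to B1-5. In the same order U46619 cultures had 72.0, 130.6, 144.2, 160.3 and 205.3 FPM. EGF+U46619 cultures had 79.9, 99.5, 118.5, 160.96 and 176.3 FPM, so neither group overlapped with the batch's Control. The log2-fold change was -1.60 ± 0.33 with U46619 and -1.76 ± 0.33 with EGF+U46619 (SE, edgeR adjusted p = 0.00515 and 0.00123), and -1.38 ± 0.12 and -1.53 ± 0.12 within the batch.

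Gstm2 had 303.8, 264.1, 340.4, 296.7 and 295.5 FPM in these Control cultures. With U46619 it had 180.7, 181.7, 178.6, 154.6 and 190.8 FPM, and with EGF+U46619 157.7, 166.3, 129.9, 148.5 and 160.4 FPM, all below Control. The EGF cultures (258.2, 227.2, 232.9, 260.3 and 199.4 FPM) also lay below every Control culture of the batch, but the change with EGF was not called within the batch (-0.35 ± 0.09, SE, edgeR adjusted p = 0.195, DESeq2 adjusted p = 0.0451) or over both batches (-0.14 ± 0.12, edgeR adjusted p = 1.0). With U46619 and EGF+U46619 the log2-fold changes of Gstm2 were -0.75 ± 0.15 and -0.97 ± 0.15 (SE, edgeR adjusted p = 0.00419 and 2.2e-04).

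Txnrd1 had 172.5, 255.4, 243.1, 302.2 and 275.4 FPM in Control. With U46619 it had 302.6, 503.1, 405.2, 534.9 and 318.0 FPM, and with EGF+U46619 332.2, 520.9, 473.2, 542.9 and 325.5 FPM. Every stimulated culture was above the highest Control culture, and the ratio to the Control of the same set was smallest in set B1-5. The log2-fold change with EGF+U46619 was 0.61 ± 0.17 (SE, edgeR adjusted p = 0.0209), a call lost without set B1-2, B1-3 or B1-4 (0.53, 0.55 and 0.47), and with U46619 it was 0.52 ± 0.17 (edgeR adjusted p = 0.0653). Within the batch the changes were 0.81 ± 0.10 and 0.71 ± 0.10, both called.

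Hmox1 had 111.5, 283.7, 251.4, 407.9 and 284.8 FPM in Control. With U46619 it had 363.0, 673.3, 719.2, 1108 and 353.8 FPM, and with EGF+U46619 362.1, 623.7, 882.7, 1253 and 405.9 FPM. Each stimulated culture was above the Control of its own set, at 1.24 to 3.51 times, while the groups overlapped through sets B1-1 and B1-5. The log2-fold changes of 1.10 ± 0.43 and 1.23 ± 0.43 were not called with the mouse term (edgeR adjusted p = 0.129 and 0.0706) and were called within the batch (1.23 ± 0.16 and 1.35 ± 0.16).

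Gpx3 had 87.0, 347.9, 513.9, 237.5 and 404.2 FPM in Control, and 49.6, 105.4, 148.5, 80.4 and 171.1 FPM with U46619. Each was lower than its own Control, and the within-batch change was -1.43 ± 0.15 (called) against -1.52 ± 0.58 with the mouse term (edgeR adjusted p = 0.118). Sod3 had 297.1, 283.1, 283.7, 268.6 and 214.2 FPM in Control and 168.4, 115.3, 129.8, 95.2 and 132.2 FPM with EGF+U46619, with no overlap. Its change was -1.12 ± 0.36 with the mouse term (edgeR adjusted p = 0.0511) and -1.07 ± 0.14 within the batch (called).

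Gclm and Srxn1 also rose within the batch. Gclm was higher than its own Control in 5 of 5 sets with U46619, by 1.02 to 1.70 times, and Srxn1 in 5 of 5 sets by 1.14 to 2.02 times. Within the batch the log2-fold changes were 0.57 ± 0.10 and 0.72 ± 0.09 (SE, both called), but with the mouse term they were 0.18 ± 0.24 and 0.44 ± 0.29 (edgeR adjusted p = 0.687 and 0.363). Sod2 was not called under any of these terms, with 0.16 ± 0.10 for U46619 and 0.01 ± 0.10 for EGF+U46619 within the batch.

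Against EGF after 48 h, U46619 called 3 of 9 members, where 3.21% of all genes were called, and EGF+U46619 5 of 9, where 4.81% were. The latter were Txnrd1 (0.68 ± 0.17), Gstm1 (-1.57 ± 0.33), Gstm2 (-0.82 ± 0.15), Gpx3 (-1.98 ± 0.60) and Sod3 (-1.26 ± 0.37). EGF+U46619 against U46619 called 0 of 9 by either tool (0% of all genes, 0 members at an unadjusted edgeR p under 0.05), with differences of -0.45 to 0.13 and intervals of 2 SE from -1.49 to 1.12. The departure from the sum after 48 h called 0 of 9 as well by either tool (0% of all genes, 0 at an unadjusted edgeR p under 0.05), with values of -0.58 to 0.18.

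**Figure D3:**
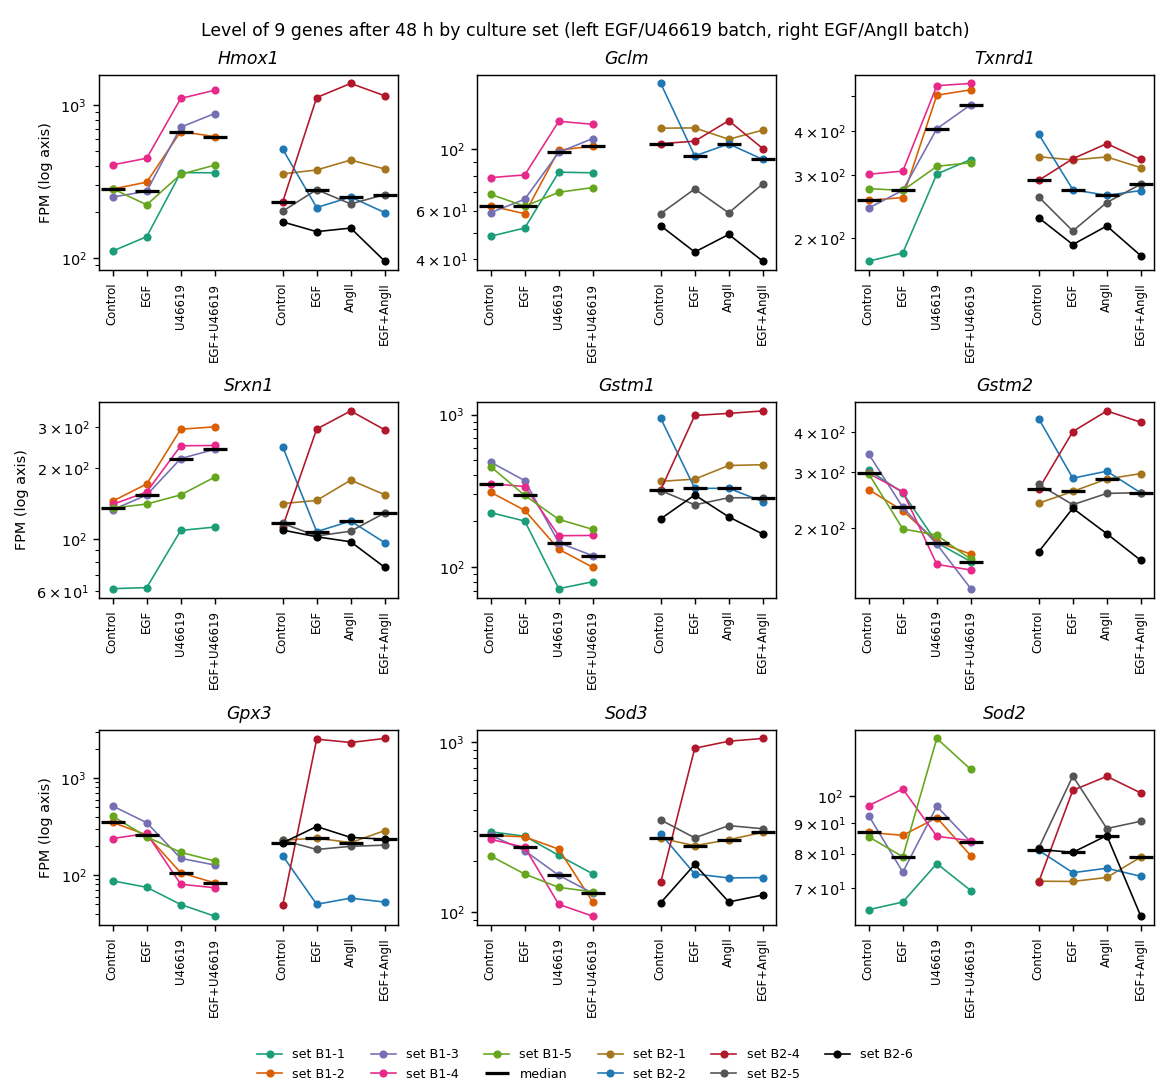
Level of the 9 detected members after 48 h, 1 panel per gene, with FPM on a log axis against the incubation, the EGF/U46619 batch on the left and the EGF/AngII batch on the right of each panel. Points of 1 colour joined by a line are the cultures of 1 culture set and black bars are medians of a group within its batch: Gstm1 and Gstm2 with U46619 lie below all Control cultures of their batch, and Gpx3 of set B2-4 jumps from 48.5 FPM in Control to 2323 to 2557 FPM in the other 3 cultures.

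In the EGF/AngII batch alone, with the culture set as the term, EGF, AngII and EGF+AngII against Control called 0 of 9 members after 48 h. Of all 14377 genes tested there 0 were called. In the fit of all 40 libraries with the mouse term, EGF and Control cultures come from both batches. By the calling rule 0% of all genes were called there for EGF, AngII or EGF+AngII against Control or EGF+AngII against EGF. DESeq2 alone had 1 gene for EGF and 1 for AngII. Each of these comparisons called 0 of 9 members by either tool, with 0 members at an unadjusted edgeR p under 0.05. Set B2-4 stood apart in these genes: its Control culture had 233.1 FPM of Hmox1, 320.8 of Gstm1, 48.5 of Gpx3 and 150.4 of Sod3, while its EGF culture had 1123, 987.8, 2516 and 917.4 FPM. Its AngII and EGF+AngII cultures were as high (Gpx3 2323 and 2557 FPM, Hmox1 1389 and 1154 FPM). The Control culture of set B2-2 was high in Gstm1 (944.8 FPM, against 268.6 to 328.4 FPM in the 3 stimulated cultures of that set) and Hmox1 (515.7 FPM, against 199.0 to 251.4 FPM). Its profile was still closer to its own set (mean r = 0.575) than to any other (at most 0.423). No Control culture of this batch had more than 228.2 FPM of Gpx3. The Control library of set B2-4 is the one whose profile lay closer to set B2-2, and what caused this was not tested. Without it, 0 of 9 members and 0 of 14524 tested genes were called with EGF, AngII or EGF+AngII.

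Gstm1 and Gstm2 both fell with U46619, and the ratio of their levels was compared within mice and sets. Of all counts of Gstm genes over the 82 libraries, 49.1% were of Gstm1, 38.1% of Gstm2 and 8.55% of Gstm5. The log2 ratio of Gstm2 to Gstm1 was -0.39 ± 0.39 (SD, n = 6) in Control after 24 h and 0.64 ± 0.76 with U46619. Within a mouse the ratio was higher with U46619 in 6 of 6, by 1.04 ± 0.75 on average, and likewise with EGF+U46619 (0.91 ± 0.83, 6 of 6) and EGF+AngII+U46619 (0.89 ± 0.77, 6 of 6). The exact two-sided sign-flip permutation test over mice gave p = 0.03125 each time, the smallest that n = 6 allows, and 0.1146 after adjustment over 11 incubations. After 48 h the difference was 0.63 ± 0.28 with U46619 and 0.56 ± 0.30 with EGF+U46619, higher in 5 of 5 sets each (exact permutation p = 0.0625, the smallest that n = 5 allows, adjusted 0.1375), with sets B1-1 and B1-4 from 1 mouse by the labels. None of the 11 differences passed the threshold after adjustment. With EGF alone for 24 h the difference was 0.17 ± 0.25 (5 of 6 higher, exact permutation p = 0.2188, adjusted 0.401).

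All Gstm genes were summed to 1 value per library, in which a read that aligns to several of them can count more than once. The decrease was still called in this sum. It was -1.52 ± 0.25 (SE) with U46619, -1.82 ± 0.25 with EGF+U46619, -1.78 ± 0.25 with EGF+AngII+U46619 and -0.84 ± 0.24 with EGF+AngII after 24 h, and after 48 h -1.13 ± 0.24 with U46619 and -1.31 ± 0.24 with EGF+U46619. The edgeR adjusted p values lay between 1.9e-06 and 0.0479. With EGF alone for 24 h the summed change was -0.64 ± 0.24 (edgeR adjusted p = 0.159).

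**Figure D4:**
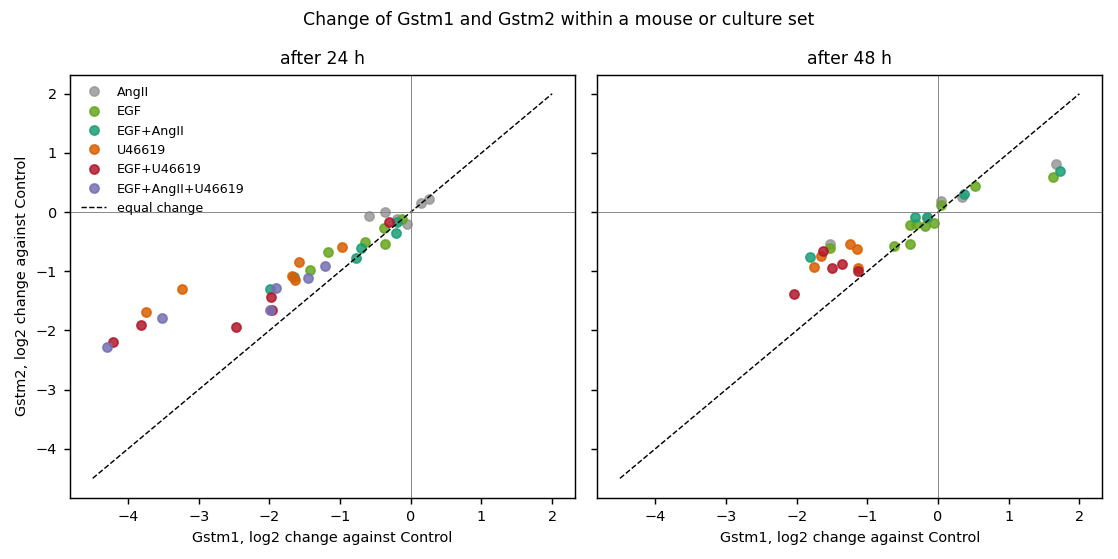
Change of Gstm2 (vertical axis) against change of Gstm1 (horizontal axis), both as log2 differences from the Control culture of the same mouse after 24 h (left) or the same culture set after 48 h (right). Each point is 1 stimulated culture, coloured by incubation, and the dashed line marks equal change: all points of U46619 lie above it, with Gstm1 down to -3.74 and Gstm2 down to -1.70 after 24 h, and those of set B2-4 lie at upper right.

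The other genes of these pathways were counted from 6 lists written from general knowledge with earlier results of these data known, with the members left out and some genes in more than 1 list. Of 27 tested NRF2 pathway genes, 9 were higher and 5 lower with U46619 after 24 h (list median 0.08, all genes -0.06). These are 51.9% of the list, where 26.8% of all genes were called. Slc7a11, the cystine carrier that feeds glutathione synthesis, rose most, from a median of 2.48 to 11.99 FPM (log2-fold change 1.77 ± 0.37, SE, edgeR adjusted p = 4.3e-04). Aldh3a1, an aldehyde dehydrogenase, fell most but at low levels, from a median of 5.69 to 1.54 FPM (-1.97 ± 0.51). It was not called with EGF+AngII+U46619. With EGF+U46619 the largest decrease was that of Fth1, the ferritin heavy chain, from a median of 5550 to 1699 FPM (-1.46 ± 0.30). After 48 h with EGF+U46619, 3 of 27 were higher and 2 lower (18.5%, where 6.85% of all genes were called), led by Ugdh, which makes UDP-glucuronic acid (0.73 ± 0.13), and by Fth1 (-0.88 ± 0.26). The regulator Keap1 and the catalytic subunit gene Gclc are among 6 genes of this list listed at 0 in every library.

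Of 18 tested glutathione transferases, 9 were lower and 2 higher with U46619 after 24 h (61.1% called), and the list median was -0.84. Gstt1, a theta-class transferase, had the largest decrease, from a median of 91.8 to 12.7 FPM (-2.46 ± 0.42, SE, edgeR adjusted p = 6.5e-05), and Gsto1, the omega-class transferase that acts as a dehydroascorbate reductase, rose from 145.3 to 338.0 FPM (1.31 ± 0.19, edgeR adjusted p = 1.8e-05). Both kept these directions with EGF+U46619 after 48 h (Gstt1 -1.81 ± 0.34, Gsto1 1.25 ± 0.23). There 1 of 18 was higher and 2 were lower, 16.7% of the list, where 6.85% of all genes were called.

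Genes of glutathione synthesis and turnover were split, with 7 higher and 4 lower of 19 tested (57.9% called, list median 0.13). Ggt5, a gamma-glutamyl transferase that cleaves extracellular glutathione conjugates, fell from a median of 115.3 to 12.5 FPM (-2.91 ± 0.54, SE), and to 4.35 FPM with EGF+U46619 (-4.08 ± 0.58). After 48 h with EGF+U46619 the glutathione-degrading Chac1 was the 1 gene higher (0.79 ± 0.22) and Ggt5 the 1 gene lower (-2.83 ± 0.71). These are 10.5% of the list, where 6.85% of all genes were called. Of 21 tested genes of peroxide and superoxide removal 3 were higher, led by the thioredoxin gene Txn1 (0.75 ± 0.18), and 6 lower (42.9% called), led by Selenop, which encodes the secreted selenium carrier, from a median of 1115 to 235.7 FPM (-2.10 ± 0.35). With EGF+U46619 after 48 h 0 of 21 were higher and 4 lower (19.0% called), Selenop among them (-1.14 ± 0.36).

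Of 9 tested oxidant sources 2 were lower and 0 higher with U46619 after 24 h, 22.2% of the list and below the 26.8% of all genes called. Aox1, an aldehyde oxidase, was the lowest (-1.32 ± 0.34, SE). Nox1, Cybb and Cyba, which encode parts of NADPH oxidases, are listed at 0 in every library, from which nothing is read. Of 17 tested genes of heme, iron and metal binding 3 were higher and 5 lower (47.1% called). The transferrin receptor gene Tfrc rose from a median of 11.97 to 53.2 FPM (2.08 ± 0.36), and the iron exporter gene Slc40a1 fell at low levels, from 4.32 to 1.52 FPM (-1.82 ± 0.48). With EGF+U46619 after 48 h the heme exporter gene Flvcr1 was higher (0.86 ± 0.20). With AngII alone and with EGF alone after 24 h, none of the genes of these lists was called (0 in each list).

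Over the 42 libraries after 24 h, with each gene centred on the mean of its mouse, the members formed groups. Gstm1 and Gstm2 followed each other most closely (Pearson r = 0.958), Gstm1 and Sod3 had r = 0.899, and Txnrd1 ran against Gstm1 (r = -0.95). Txnrd1 and Srxn1 had r = 0.864, Hmox1 and Srxn1 r = 0.801, and Sod2 had r of -0.165 to 0.461 with the other members. These libraries share treatments, so the values describe the pattern across incubations. Among all 14528 tested genes the one most like each member was Ephx1 for Gstm1 (r = 0.984), Arsa for Gstm2 (0.973), Ipo5 for Txnrd1 (0.968), Eif3c for Gclm (0.939), Entpd2 for Sod3 (0.938), Gsto1 for Srxn1 (0.929), Hspa1b for Hmox1 (0.895), Ly6c1 for Gpx3 (0.889) and Ube2d.ps for Sod2 (0.797).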

How the data were processed

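Poly(A) RNA of 82 aVSMC libraries was sequenced as paired reads of 150 bases. The authors aligned the reads with HISAT2 2.1.0 to mm10 and counted them per gene with featureCounts over exons, including reads that align to several places, and deposited raw counts. From these counts, FPM were computed with TMM library sizes, and each time point was fitted over all its groups with mouse and treatment as terms in edgeR 4.0.16 (quasi-likelihood test, filterByExpr) and DESeq2 1.42.0 (R 4.3.3), with Benjamini-Hochberg adjustment. A gene was called with an adjusted p under 0.05 in both, a mean of at least 5 FPM in 1 group compared, and tests at both time points (14528 genes). Standard errors are the edgeR log2-fold change divided by the root of its F value. The scripts were tested on simulated counts. Tables and figures used Python 3.11.15 and Matplotlib 3.10.9.

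Same-numbered cultures come from the same mouse by the labels. After 24 h all 126 pairs of cultures of a mouse deviated together from the group means (r of at least 0.395), so the mouse was kept as the block, and after 48 h 57 of 60 pairs of a culture set did, the lowest at -0.297. The labels do not say whether cultures of 1 mouse were separate isolations, so p-values measure the spread between these cultures. Alternatives were DESeq2 or edgeR alone, edgeR's likelihood ratio test with DESeq2, other normalizations and filters, fits of only the groups compared, fits with no block or with the culture set as block, single batches, each replicate left out and, chosen after seeing the data, the Control library of set B2-4 left out. Members, gene lists and the naming rule (the called gene of each list with the highest and the lowest log2-fold change with U46619 or EGF+U46619 after 24 h or EGF+U46619 after 48 h) were chosen with earlier results of these data known.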

Additional observations from a re-analysis of the deposited data

Results flagged for a closer look

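Among 117 combinations of a member and a group of 5, 6 or 10 cultures, 6 held a culture whose gap to the nearest other was large against the range of the group, and chance flags about 1 in 20 groups. The EGF culture of set B2-4 after 48 h was the high one for 4 members, with 987.8 FPM of Gstm1 (median of the other cultures 297.0), 400.7 FPM of Gstm2 (237.2), 2516 FPM of Gpx3 (247.5) and 917.4 FPM of Sod3 (240.8). After 24 h, Gstm2 in the EGF+AngII culture of mouse 4 was high with 314.8 FPM (142.3 in the others), where the Control of that mouse was also the highest of its group. Gpx3 in the AngII culture of mouse 1 was low with 1.715 FPM (85.04 in the others), and the Control of that mouse had 3.41 FPM.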

How the results depend on the processing

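The number of called members is given here for each alternative that moved it by over 1.5 times. For comparisons against Control, the number of all genes called stands in parentheses, of 14528 tested unless another number is given. In the main fit these were 3893 with U46619, 4666 with EGF+U46619, 4849 with EGF+AngII+U46619 and 455 with EGF+AngII after 24 h. After 48 h they were 585 with U46619 and 995 with EGF+U46619. With no replicate block, 24 h counts against Control were 5 with EGF+AngII+U46619 (2143), 5 with EGF+U46619 (1826), 3 with U46619 (1037) and 0 with EGF+AngII (0). They were 0 for U46619 and 1 for EGF+U46619 against EGF, and 1 for EGF+AngII+U46619 against EGF+AngII. After 48 h without the block they were 0 for U46619 against Control (109), 0 for U46619 against EGF and 2 for EGF+U46619 against EGF. EGF+AngII after 24 h gave 2 with DESeq2 alone (1325), 2 with the likelihood ratio test (986), 2 with no filter (492 of 30216 fitted) and 0 with only the groups compared (0 of 13169). EGF+AngII+U46619 against EGF+AngII gave 3 with only the groups compared. After 48 h, U46619 gave 4 with DESeq2 alone (952), 7 with the culture set as block (1546), 8 in its batch (3108 of 14179) and 1 with only the groups compared (278 of 14108). EGF+U46619 gave 6 with DESeq2 alone (1452), 6 with the likelihood ratio test (1128) and 8 with the culture set as block (2170). It gave 8 in its batch (3770 of 14179) and 5 without the Control library of set B2-4 (922 of 14524). Against EGF, U46619 gave 6, 8 and 0, and EGF+U46619 gave 8, 8 and 0, with the culture set as block, in the batch and with only the groups compared.

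With each replicate left out, counts ranged from 0 to 2 for EGF+AngII after 24 h, 3 to 7 for U46619 against EGF (3 without mouse 2 or 4), 5 to 8 for EGF+U46619 against EGF (5 without mouse 4 or 5), 5 to 8 for EGF+AngII+U46619 against EGF+AngII, and 7 to 8 for the 3 incubations with U46619 against Control. After 48 h they ranged from 2 to 5 for U46619 (5 without set B2-4, 4 without B1-5), 2 to 6 for EGF+U46619 (6 without B2-4, 5 without B1-5), 0 to 4 for U46619 against EGF (0 without B1-3, 1 without B1-1 or B1-4) and 2 to 6 for EGF+U46619 against EGF (2 without B1-2, B1-3 or B1-4, 3 without B2-1, B2-5 or B2-6). Calls over all genes against Control moved as well, from 0 to 338 with EGF, 0 to 1115 with EGF+AngII and 2438 to 4429 with U46619 after 24 h. After 48 h they ran from 145 without B1-3 to 736 without B2-4 with U46619. With EGF+U46619 they ran from 362 without B1-3 to 1149 without B2-4. The difference of the Gstm2 to Gstm1 log2 ratio changed sign after 48 h with EGF (-0.1122 to 0.1035), AngII (-0.1877 to 0.2731) and EGF+AngII (-0.1935 to 0.3264). Among called members, 191 of the values with a replicate left out kept the call and 14 lost it, 271 under other alternatives kept it and 20 lost it, and 0 reversed. The cause of these moves was not tested.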
